A study of Drosophila melanogaster with 29 samples.

Results

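The dpr genes and the DIP genes of Drosophila encode cell-surface proteins of the immunoglobulin superfamily. All genes whose symbol in the deposited tables is dpr followed by a number, or DIP followed by a Greek letter name, were taken, and this gave 32 genes of the 17612 in the tables, 21 dpr genes and 11 DIP genes. Their levels were followed through 3 kinds of RNA sequencing libraries of neurons of the fly compass circuit. All flies were adult females aged 3 to 5 days. Neurons were marked with the nuclear reporter nls-tdTomato under a driver line specific to a type, and sorted by fluorescence. The bulk libraries were 4 of D7 neurons (drivers SS02238 and SS30295, 2 each), 4 of EPG neurons (drivers SS00096 and SS00131, 2 each), 2 of PEG neurons (SS02191) and 2 of PEN2 neurons (SS02232), each from 754 to 1270 cells. Their control was whole brain RNA (WB), 2 libraries of 5 ng each, with no reporter or driver named. The low-cell libraries were 14 of PEN2 neurons (SS02232, 35 cells each), 7 of R4d neurons (SS00238, 40 cells each) and 8 of RNA from central brains, the optic lobes having been removed (CB, 50 pg each). The single-cell libraries filled 6 plates of PEN1 neurons (SS62862) and 5 plates of PEN2 neurons (SS02232). PEG, R4d and PEN1 are each known from 1 driver only, as is PEN2, so the type and the driver cannot be told apart there.

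Dpr proteins and DIPs (Dpr-interacting proteins) bind each other between neighbouring cells, each DIP with its own preferred Dpr partners. In the fly optic lobe and at the neuromuscular junction, partner pairs are known from neurons that form synapses with each other, where they act in the choice of synaptic partner and in cell survival. DIP-alpha binds Dpr6 and Dpr10, DIP-gamma binds Dpr11, Dpr15, Dpr16 and Dpr17, and DIP-delta binds Dpr12. The neurons studied here lie in the central complex. EPG neurons carry the heading signal, and PEN1 and PEN2 neurons shift it as the fly turns. PEG neurons connect the protocerebral bridge with the ellipsoid body and the gall. D7 neurons link columns of the bridge, and R4d neurons are ring neurons that bring visual input.

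The bulk table holds FPKM, a level per gene length and library, whose read depth is unknown. The sorted bulk libraries had 4103 to 6106 genes at 1 FPKM or more, and the WB libraries 8388 and 8597. The low-cell libraries held 340527 to 1154010 counts and the plates 2444192 to 5783837 counts, with R4d the deepest low-cell group. Neuronal markers were present in every library and the reporter was high in all sorted bulk libraries. The summed level of 7 glial markers was 3411 FPKM in PEG replicate 1 and 196 FPKM in PEG replicate 2, against 1.26 to 32.5 FPKM in the other sorted bulk libraries and 805 and 843 FPKM in WB. Whether the replicates came from separate dissections is not stated for the low-cell and plate libraries, so the p-values there cover the spread from library to library, which may be technical. The 2 WB libraries correlated at 0.98 with each other, against 0.727 to 0.807 between libraries of a sorted bulk type. They entered the spread that all bulk tests share, so the bulk p-values may be too small, also those between sorted types. In bulk samples, fewer cells of a type and less RNA per cell cannot be told apart.

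Each sorted type held its own set of dpr genes and few DIP genes. EPG libraries held 13 or 14 members at 10 FPKM or more, all of them dpr genes, while D7 libraries held 5 to 9, of which 1 or 2 were DIP genes. PEG libraries held 8 and 9 such members, PEN2 libraries 14 and 7, and both WB libraries 22. By their mean over libraries, dpr8, dpr9, dpr12 and dpr21 reached 10 FPKM in all 4 sorted types, and 16 further members did so in some of them. Some of these means rest on part of the libraries. For dpr21 the level was 5.61 to 16.8 FPKM in D7 and 81.4 and 5.95 in PEN2. For dpr8 it was 7.63 in PEG replicate 2, and for DIP-lambda 30.0 and 0 in PEN2. DIP-epsilon, DIP-zeta, DIP-theta and DIP-iota had a mean under 1 FPKM in all 4 sorted types, and no dpr gene did. The summed FPKM of the 11 DIP genes was 2.97 to 7.50 in EPG, 39.5 to 76.1 in D7, 6.64 and 24.2 in PEG, 26.1 and 85.5 in PEN2 and 103 and 109 in WB. The 21 dpr genes together stood at 172 to 252 FPKM in D7 and at 319 to 578 in EPG, so the DIP sum was the smaller in both types. The heat map of levels shows these sets library by library.

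**Figure D1:**
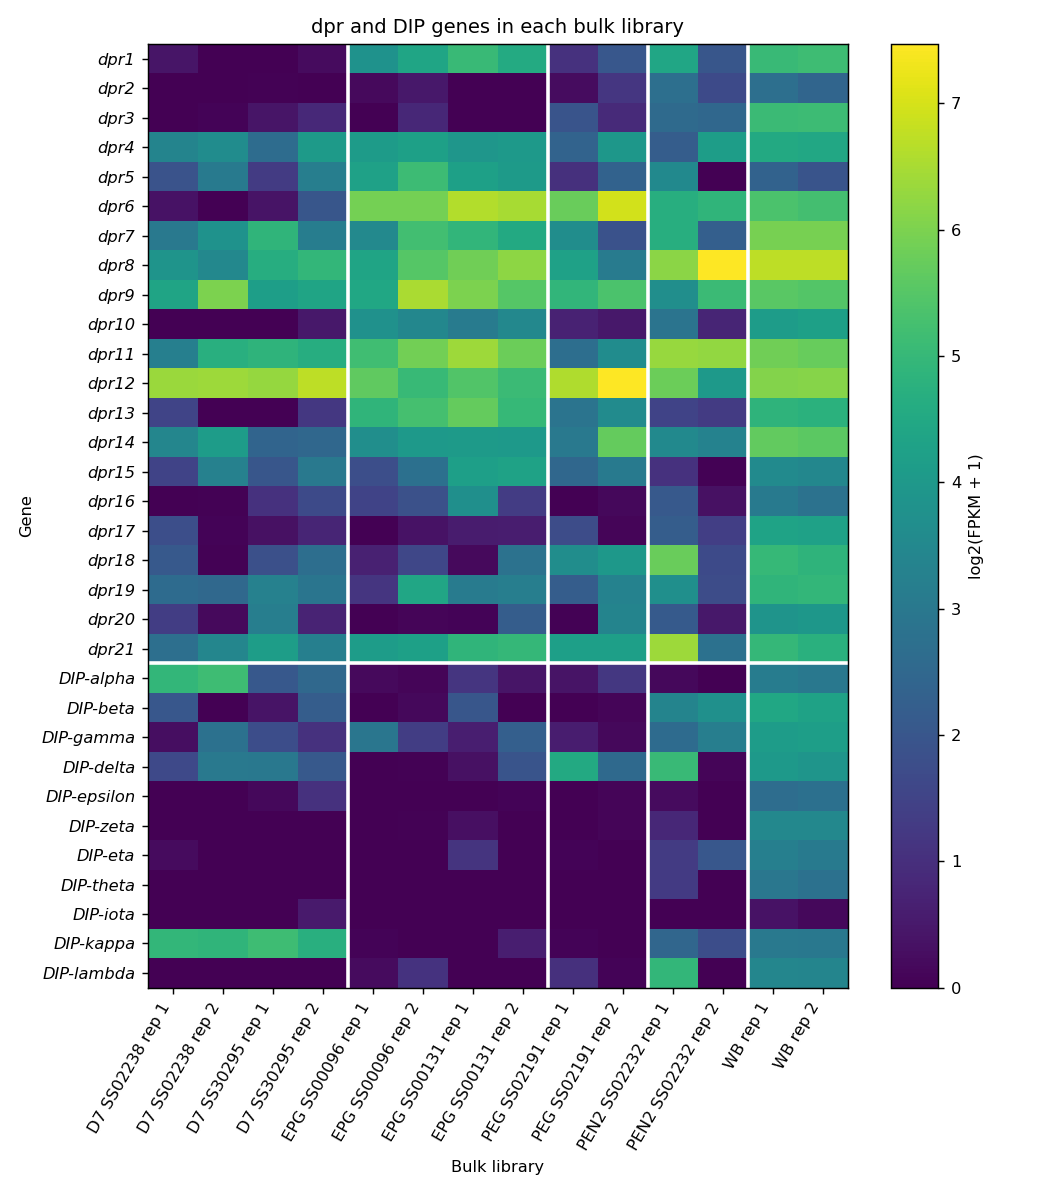
Level of each of the 32 genes (rows, dpr above and DIP below the white line) in each of the 14 bulk libraries (columns, types separated by white lines), as log2(FPKM + 1). D7 libraries are dark for dpr6, dpr10 and dpr13 and bright for DIP-kappa, while only those of SS02238 are bright for DIP-alpha. EPG libraries are dark for most DIP genes, and the 2 WB libraries show nearly all members except DIP-iota.

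The bulk types differed in 11 of the 31 members tested (limma moderated F test over D7, EPG, PEG and PEN2, adjusted p under 0.05), against 7.09% of all 9500 genes tested. These were dpr1, dpr2, dpr3, dpr6, dpr8, dpr10, dpr11, dpr12, dpr13, DIP-alpha and DIP-kappa. DIP-iota was not tested, because it did not reach 1 FPKM in 2 libraries. Log2 differences below come from TMM-scaled FPKM with 1 added, which understates the change of low genes, while the FPKM printed are as deposited. The errors beside them are standard errors, and adjusted p-values are limma's with Benjamini-Hochberg adjustment over all genes tested.

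DIP-alpha and its known partners dpr6 and dpr10 lay in different types. DIP-alpha stood at 29.5 and 34.6 FPKM in the D7 libraries of SS02238, at 3.18 and 4.81 in those of SS30295, at 0.13, 0.08, 1.21 and 0.34 in EPG, at 0.32 and 1.32 in PEG, at 0.12 and 0 in PEN2 and at 7.82 and 6.90 in WB. Every D7 library was above every other sorted library, and WB lay between the 2 D7 drivers. It was higher in D7 than in EPG (log2 difference 3.35 ± 0.77, adjusted p = 0.0309) and than in PEN2 (3.74 ± 0.94, adjusted p = 0.0453), and the difference to PEG did not pass (3.01 ± 0.94, adjusted p = 0.134). Its F test gave an adjusted p of 0.0395, and this call was kept in 8 of 19 alternative settings (adjusted p from 0.022 to 0.116). It was lost without either SS02238 library (0.116 without replicate 1 and 0.0811 without replicate 2) and also without any single EPG library (0.0575 to 0.0724), either PEN2 library (0.0542 and 0.0607) or PEG replicate 1 (0.056). The pair calls were kept in 12 of 19 settings against EPG and in 5 of 19 against PEN2.

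The partner dpr6 was the reverse. Its level was 0.28, 0, 0.32 and 2.99 FPKM in D7, against 59.5, 59.0, 97.4 and 88.4 in EPG, 53.4 and 123 in PEG, 24.9 and 28.5 in PEN2, and 39.6 and 37.0 in WB. D7 lay apart from all other libraries, and in deposited FPKM EPG and PEG lay above WB and PEN2 below it. The order of PEN2 and WB turned with the TMM scaling (PEN2 minus WB 0.72 ± 0.58, adjusted p = 0.579). On the log2 scale D7 minus EPG was -5.66 ± 0.41 (adjusted p = 1.81e-05), with D7 minus PEG at -5.76 ± 0.50 (adjusted p = 0.000119) and D7 minus PEN2 at -4.42 ± 0.50 (adjusted p = 0.000401).

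The other partner, dpr10, was highest in EPG among the sorted types. It stood at 12.6, 10.0, 7.58 and 10.3 FPKM in EPG, at 0, 0, 0 and 0.41 in D7, at 0.63 and 0.40 in PEG, at 6.29 and 0.70 in PEN2 and at 16.5 and 17.9 in WB. All EPG libraries were above all other sorted libraries and below WB in deposited FPKM, an order that turned with the TMM scaling (EPG minus WB 0.26 ± 0.64, adjusted p = 0.967). It was higher in EPG than in D7 (D7 minus EPG -3.45 ± 0.52, adjusted p = 0.00195) and than in PEG (EPG minus PEG 2.93 ± 0.64, adjusted p = 0.0339). The difference to PEN2 did not pass (EPG minus PEN2 1.58 ± 0.64, adjusted p = 0.292). The call against PEG was kept in 9 of 19 alternative settings. It was lost without either PEG library, any EPG library, either WB library or D7 SS30295 replicate 1, and with a pseudocount of 0.1.

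DIP-kappa, a DIP gene like DIP-alpha, was high in D7 under both drivers. It stood at 30.1, 28.5, 34.3 and 25.3 FPKM in D7, at 0.06, 0, 0.01 and 0.55 in EPG, at 0.06 and 0 in PEG, at 4.58 and 2.40 in PEN2 and at 7.17 and 6.94 in WB. The D7 libraries of both drivers lay together and above WB, while EPG and PEG were near 0. D7 exceeded EPG by 4.89 ± 0.39 (adjusted p = 2.97e-05), PEG by 5.03 ± 0.48 (adjusted p = 0.000154) and PEN2 by 2.71 ± 0.48 (adjusted p = 0.00711, lost with the pseudocount of 0.1) on the log2 scale. It was also lower in EPG than in PEN2 (-2.18 ± 0.48, adjusted p = 0.0343), a call that 13 of 19 alternative settings did not keep.

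The DIP-delta partner dpr12 was high in D7 and PEG. It stood at 79.6, 81.5, 77.1 and 104 FPKM in D7, at 95.01 and 176 in PEG, at 48.9, 31.6, 42.6 and 33.0 in EPG, at 54.1 and 15.5 in PEN2 and at 66.3 and 67.6 in WB. Every D7 and PEG library was above every EPG and PEN2 library. The F test called it (adjusted p = 0.0332), yet none of the 6 pairs did, the nearest being EPG against PEG (-1.69 ± 0.41, adjusted p = 0.0616), and the F call was lost in 8 of 19 alternative settings. DIP-delta itself was at 2.12 to 7.19 FPKM in D7, 0 to 2.80 in EPG, 22.2 and 4.92 in PEG and 32.6 and 0.07 in PEN2, and did not pass.

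Among the remaining dpr genes, dpr13 and dpr1 had their highest mean of the sorted types in EPG. The level of dpr13 was 28.8, 37.9, 51.1 and 30.9 FPKM in EPG, 1.92, 0, 0.01 and 1.3 in D7, 6.40 and 11.2 in PEG, 1.85 and 1.48 in PEN2 and 27.8 and 26.2 in WB. EPG lay above all other libraries, and PEG lay above D7 and PEN2. The difference of EPG to PEG did not pass (2.01 ± 0.51, adjusted p = 0.07). D7 was lower than EPG (-4.64 ± 0.41, adjusted p = 4.86e-05) and than PEG (-2.62 ± 0.51, adjusted p = 0.0147), and EPG was higher than PEN2 (3.71 ± 0.51, adjusted p = 0.00182). The call of D7 against PEG was lost without PEG replicate 2 or either WB library, and both it and the call of EPG against PEN2 with the pseudocount of 0.1.

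The founding member of the family, dpr1, takes its name from the proboscis extension response to salt. It stood at 13.2, 20.1, 32.5 and 22.9 FPKM in EPG, at 0.34, 0, 0.01 and 0.16 in D7, at 1.09 and 3.04 in PEG, at 20.3 and 3.02 in PEN2 and at 32.7 and 34.8 in WB. D7 was below every other library, and PEN2 replicate 1 reached the EPG range while replicate 2 did not. The difference of EPG to PEN2 did not pass (1.10 ± 0.56, adjusted p = 0.437). D7 was lower than EPG (-4.41 ± 0.46, adjusted p = 0.000131) and than PEN2 (-3.31 ± 0.56, adjusted p = 0.0056), and EPG exceeded PEG (3.00 ± 0.56, adjusted p = 0.0147), a call lost without PEG replicate 1 or WB replicate 2 and with the pseudocount of 0.1.

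A DIP-gamma partner, dpr11, was high in PEN2 and EPG. It stood at 79.2 and 75.3 FPKM in PEN2, at 35.4, 58.0, 82.6 and 54.3 in EPG, at 8.38, 25.5, 27.9 and 24.2 in D7, at 5.55 and 11.5 in PEG and at 57.0 and 52.4 in WB. All EPG and PEN2 libraries were above all D7 and PEG libraries. PEN2 exceeded D7 (D7 minus PEN2 -2.09 ± 0.46, adjusted p = 0.0224) and PEG (PEG minus PEN2 -3.37 ± 0.53, adjusted p = 0.00715), and EPG exceeded PEG (2.68 ± 0.46, adjusted p = 0.00899). The call against D7 was lost without either PEN2 library and without scaling, and that of EPG against PEG without PEG replicate 1. The other DIP-gamma partners did not pass, with dpr15 at 0.03 to 18.8, dpr16 at 0 to 12.2 and dpr17 at 0.02 to 3.59 FPKM over all sorted libraries.

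PEN2 was the highest sorted type for dpr8, dpr2 and dpr3. The level of dpr8 was 70.8 and 176 FPKM in PEN2, 19.6, 43.9, 56.8 and 73.2 in EPG, 13.6, 10.2, 24.1 and 30.0 in D7, 18.6 and 7.63 in PEG and 104 and 104 in WB. The PEN2 range overlapped with that of EPG and not with those of D7 and PEG. It was higher in PEN2 than in D7 (D7 minus PEN2 -2.76 ± 0.55, adjusted p = 0.014) and than in PEG (PEG minus PEN2 -3.36 ± 0.64, adjusted p = 0.0206). Both calls were lost without PEN2 replicate 2, the library at 176 FPKM, and the call against PEG also without PEG replicate 2.

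At lower levels, dpr2 stood at 5.60 and 2.17 FPKM in PEN2, at 0, 0, 0.04 and 0 in D7, at 0.14, 0.39, 0 and 0 in EPG, at 0.18 and 1.26 in PEG and at 5.62 and 4.43 in WB. PEN2 lay above the other sorted libraries, and its difference was called against D7 (D7 minus PEN2 -2.42 ± 0.38, adjusted p = 0.00381) and EPG (EPG minus PEN2 -2.25 ± 0.38, adjusted p = 0.00803), the latter lost without either WB library. For dpr3 the levels were 5.03 and 4.69 FPKM in PEN2, 0, 0.06, 0.35 and 0.82 in D7, 0, 0.78, 0.01 and 0 in EPG, 2.81 and 0.86 in PEG and 33.2 and 33.8 in WB. PEN2 was again the highest sorted type, well below WB. The dpr3 differences to D7 (-2.47 ± 0.59, adjusted p = 0.034) and to EPG (-2.62 ± 0.59, adjusted p = 0.0371) passed narrowly and each was kept in 7 of 19 alternative settings. Its F test call was kept in 4 of 19, the fewest of the 11 members, with adjusted p up to 0.144, and was lost without any single D7, EPG, PEN2 or WB library.

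**Figure D2:**
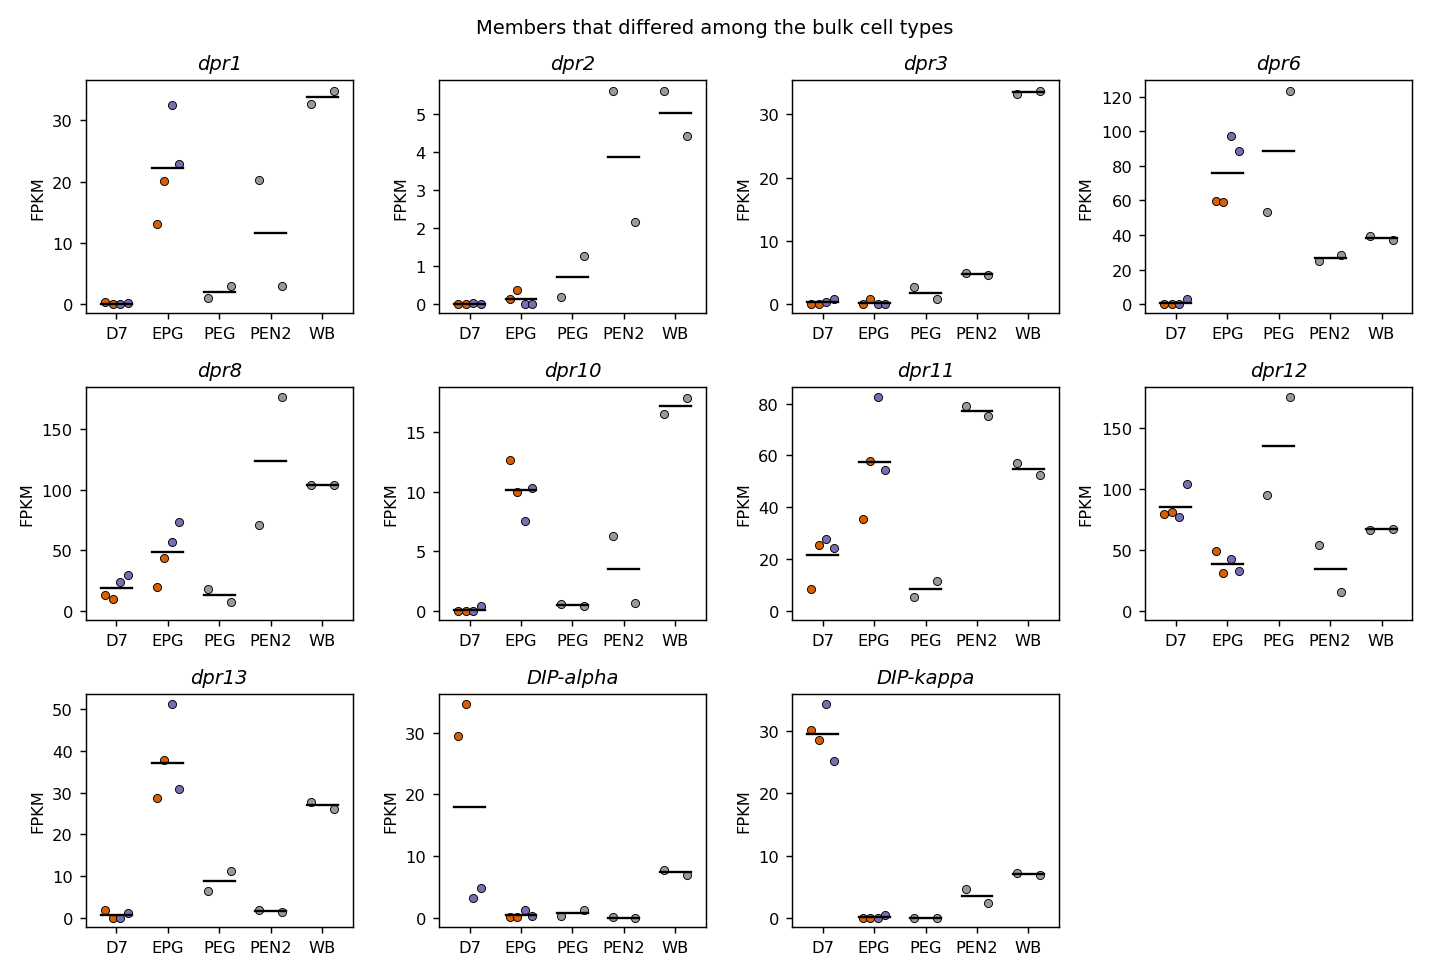
FPKM (vertical axes, linear, from 0) of the 11 members that differed among the bulk types, with 1 point per library and a bar at the mean of each group. Orange points are drivers SS02238 (D7) and SS00096 (EPG), purple points SS30295 (D7) and SS00131 (EPG), grey points the groups with 1 driver and WB. DIP-alpha splits the D7 libraries by driver, at 29.5 and 34.6 against 3.18 and 4.81 FPKM, while DIP-kappa does not.

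Counted by pair of types, between 2 and 9 of the 31 members were called. Between D7 and EPG, 6 of 31 members were called (3.47% of all genes), 2 higher and 4 lower in D7 (1.52% and 1.96% of all genes). Between D7 and PEN2 the count was 9 (4.31% of all genes), 2 higher and 7 lower in D7 (1.44% and 2.86%). The member not named above was DIP-eta, at 0.17, 0, 0 and 0 FPKM in D7 against 1.48 and 3.11 in PEN2 (adjusted p = 0.0258, kept in 11 of 19 alternative settings). Between D7 and PEG it was 3 (3.33%), 1 higher and 2 lower in D7 (0.989% and 2.34%). EPG and PEG differed in 3 members (2.23% of all genes), all higher in EPG (0.779% were higher and 1.45% lower). EPG and PEN2 differed in 4 (2.6%), 1 higher and 3 lower in EPG (0.926% and 1.67%), and PEG and PEN2 in 2 (1.58%), both lower in PEG (0.821% were higher and 0.758% lower).

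In all, 11 members were called in at least 1 of the 6 pairs. The median log2 difference of the 31 members was -0.30 for D7 minus EPG, -0.24 for D7 minus PEG and -0.67 for D7 minus PEN2, against 0, 0 and 0.12 over all genes. For EPG minus PEG it was 0.21 against 0, for EPG minus PEN2 -0.20 against 0.06 and for PEG minus PEN2 -0.58 against 0.04. The small counts moved with single libraries. EPG against PEG fell to 0 without PEG replicate 1 and to 1 without WB replicate 2, and rose to 5 without either PEN2 library. EPG against PEN2 gave 2 calls without D7 SS02238 replicate 1, D7 SS30295 replicate 1 or EPG SS00096 replicate 1, and 1 call without either WB library. PEG against PEN2 gave 4 and 5 calls without PEN2 replicate 1 and 2.

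The other 20 tested members were not called in the F test over the bulk types. With so few libraries per type, this does not show that their levels were equal. Nearest to the threshold were DIP-eta (adjusted p = 0.0556), which was called between D7 and PEN2 above, and DIP-beta (adjusted p = 0.0689). DIP-beta stood at 9.30 and 12.4 FPKM in PEN2, at 0 to 3.58 in D7, at 0 to 2.99 in EPG and at 0 and 0.08 in PEG. Broadly present members included dpr9 (11.9 to 90.1 FPKM over the sorted libraries), dpr4 (3.61 to 17.9) and dpr21 (5.61 to 81.4). DIP-theta was listed at 0 in all D7, EPG and PEG libraries, and DIP-zeta in all D7 libraries.

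D7 and EPG were each sorted from 2 drivers, which allowed the drivers to be set against each other. No member was called between the D7 drivers (limma, with 2 members at an unadjusted p under 0.05 and 0.421% of all genes called) or between the EPG drivers (1 member at an unadjusted p under 0.05 and 0.305% of all genes called). The D7 drivers were furthest apart in DIP-alpha, whose levels above give a log2 difference of 3.03 ± 0.65 for SS02238 minus SS30295 (adjusted p = 0.107). This difference passed in the fit of all genes without a filter (adjusted p = 0.0286). The header of the bulk table gives SS02238 replicate 2 the driver number SS00238, which the labels use for R4d, and lists it as D7.

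Against whole brain RNA, 4 to 13 of the 31 members were called, and most of these were lower in the sorted type, as were most of the called genes overall. All 4 comparisons share the same 2 WB libraries and are not independent of each other. D7 had 13 called members (10.3% of all genes), 2 higher and 11 lower (1.72% and 8.63% of all genes). EPG had 10 (9.69%), 1 higher and 9 lower (1.52% and 8.18%). PEG had 8 (6.11%), 1 higher and 7 lower (0.895% and 5.21%). PEN2 had 4 (7.72%), all lower (1.43% were higher and 6.28% lower). The median log2 difference of the members was -1.62 in D7, -0.99 in EPG and -1.63 in PEG, against -0.21, -0.23 and -0.24 over all genes. In PEN2 it was -0.45, close to the -0.42 of all genes.

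The members lower in all 4 types were DIP-epsilon (5.39 and 5.79 FPKM in WB, at most 1.10 in a sorted library), DIP-zeta (10.2 and 10.3 in WB, at most 0.77) and DIP-theta (6.76 and 5.95 in WB, at most 1.39). None of them reached 1 FPKM in 2 sorted libraries, so they passed the filter only because of WB. Their lower direction was thus set by the filter, and the counts above include them. The higher ones were DIP-kappa in D7 (2.86 ± 0.48, adjusted p = 0.00135), dpr12 in D7 (1.43 ± 0.41, adjusted p = 0.0477) and PEG (1.95 ± 0.48, adjusted p = 0.0287) and dpr6 in EPG (1.96 ± 0.50, adjusted p = 0.0246). The dpr12 and dpr6 calls were lost without scaling and with upper-quartile scaling.

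Scaling set part of these values. Without it, the median over all genes moved to between -0.90 and -1.13, the share of called genes that were higher in the sorted type fell from 16.6% to 3.34% in D7, from 15.6% to 3.16% in EPG, from 14.7% to 3.68% in PEG and from 18.6% to 2.47% in PEN2. The WB libraries also decided the counts. Without either of them D7 kept 1 call and EPG, PEG and PEN2 none, while the calls over all genes fell to between 13 and 50. Without PEG replicate 2, PEG had 5 calls. WB also held RNA of other cells, with summed photoreceptor markers at 289 and 324 FPKM against at most 6.22 in a sorted library, and the part of these cells in the differences was not tested.

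The low-cell libraries added R4d ring neurons, in which most members were near 0. Levels here are counts scaled to the library total (CPM), which are not per gene length and are compared only between groups. R4d differed from CB in 24 of 28 members tested (edgeR quasi-likelihood test, adjusted p under 0.05), 1 higher and 23 lower, against 27.3% of all 5553 genes, of which 10.8% were higher and 16.5% lower. The median log2 difference of the members was -4.34 against -0.10 over all genes, and it stayed at -4.34 with members at 0 set to their bound. DIP-alpha, DIP-epsilon, DIP-iota and DIP-lambda were below the filter on low counts. The summed CPM of the dpr genes was 1114 to 1894 in R4d, 2607 to 3118 in CB and 2441 to 4083 in PEN2, and that of the DIP genes was 22.4 to 114 in R4d, 360 to 463 in CB and 155 to 506 in PEN2. PEN2 differed from R4d in 23 of 28 members, 21 higher and 2 lower (23.4% of all genes were called, 11.8% higher and 11.7% lower), with a median of 4.01 (3.97 with bounds) against -0.03. The filter on low counts was met only through CB or PEN2 by dpr2, dpr5, dpr8, dpr11, dpr13, dpr15, dpr16, dpr18 and dpr20. The same held for all 7 tested DIP genes. Their lower direction in R4d was thus set in large part by the filter, and the counts and medians include them. These comparisons share groups, and the libraries come from few sample entries, 2 for PEN2, 1 for R4d and 1 for CB, so that p-values over them may be too small.

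Several dpr genes had PEN2 and CB levels well apart from R4d. For dpr8 the lowest, median and highest CPM were 295, 471 and 646 in PEN2, 0, 0 and 18.4 in R4d and 73.0, 168 and 277 in CB. All PEN2 libraries were above all CB libraries and all CB above all R4d, and the log2 differences were 1.35 for PEN2 minus CB (adjusted p = 0.00777), -5.80 for R4d minus CB (adjusted p = 2.62e-10) and 7.15 for PEN2 minus R4d (adjusted p = 2.2e-12). For dpr11 the values were 28.3, 103 and 277 in PEN2, 0, 0 and 5.82 in R4d and 26.8, 65.9 and 85.3 in CB. PEN2 and CB overlapped, and R4d lay below both (R4d minus CB -5.31, adjusted p = 7.48e-08). For dpr18 they were 30.6, 89.1 and 145 in PEN2, 0, 0 and 6.07 in R4d and 92.3, 107 and 138 in CB. PEN2 and CB overlapped, with R4d below both (R4d minus CB -6.08, adjusted p = 4.5e-09).

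The DIP-alpha partner dpr6 gave 66.8, 205 and 506 CPM in PEN2, 0, 2.81 and 32.9 in R4d and 118, 138 and 199 in CB. R4d lay below both other groups (R4d minus CB -4.30, adjusted p = 8.23e-07). For dpr9 the values were 108, 299 and 507 in PEN2, 0, 0.867 and 44.6 in R4d and 139, 227 and 285 in CB. Again the highest R4d library was below the lowest of the others (R4d minus CB -4.37, adjusted p = 8.86e-07). The other DIP-alpha partner, dpr10, went another way. Its values were 50.8, 86.1 and 130 CPM in R4d, 28.4, 74.7 and 150 in CB and 0, 16.7 and 52.9 in PEN2, where 3 libraries were at 0. R4d lay inside the CB range, the highest PEN2 library reached the lowest of R4d, and PEN2 was lower than CB (-2.08, adjusted p = 0.0122) and than R4d (-2.23, adjusted p = 0.0065).

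Among the tested members dpr12, the DIP-delta partner, was alone in being called higher in R4d than in CB. It stood at 371, 487 and 807 CPM in R4d, 170, 205 and 266 in CB and 89.1, 210 and 344 in PEN2. Every R4d library was above every other library, and PEN2 and CB overlapped (R4d minus CB 1.35, adjusted p = 7.2e-06, PEN2 minus R4d -1.41, adjusted p = 2.33e-07). DIP-delta itself was at 0, 3.69 and 11.6 CPM in R4d, 23.2, 34.5 and 63.4 in CB and 0, 58.5 and 148 in PEN2. R4d lay below CB (-3.22, adjusted p = 0.00319), so R4d combined the highest dpr12 with a low DIP-delta.

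Some members kept a middle level in R4d. For dpr7 the values were 53.3, 77.9 and 108 CPM in R4d, 226, 275 and 297 in CB and 74.2, 192 and 456 in PEN2. R4d was below CB without overlap (-1.77, adjusted p = 2.63e-05) and overlapped with PEN2 (PEN2 minus R4d 1.41, adjusted p = 0.000255). For dpr14 they were 131, 190 and 238 in R4d, 150, 217 and 355 in CB and 184, 386.2 and 556 in PEN2. R4d and CB did not differ beyond their spread (adjusted p = 0.446), and PEN2 was higher than R4d (0.87, adjusted p = 0.00139) and CB (0.60, adjusted p = 0.0281). The call against CB was lost without a filter and after thinning all libraries to 340527 counts. No difference of dpr21 passed in the 3 comparisons, at 149 to 360 CPM in R4d, 164 to 307 in CB and 35.0 to 620 in PEN2.

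For dpr3 the values were 121, 338 and 1113 CPM in PEN2, 0, 25.2 and 55.2 in R4d and 82.4, 133 and 176 in CB. R4d was below all others, and PEN2 reached far above CB while its lowest libraries overlapped with it (PEN2 minus CB 1.54, adjusted p = 0.0222, R4d minus CB -2.34, adjusted p = 0.00173). For dpr2 they were 0, 135 and 381 in PEN2, 0, 0 and 17.3 in R4d and 20.7, 47.6 and 88.2 in CB. R4d lay below CB (-2.97, adjusted p = 0.00503), and PEN2 spread over the range of both. For dpr1 they were 0, 44.7 and 253 in PEN2, 0, 0 and 24.3 in R4d, where 6 of 7 libraries were at 0, and 67.5, 100 and 155 in CB. The R4d group lay below CB (-4.80, adjusted p = 0.000389) and overlapped with PEN2.

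The rest of the dpr genes named by the rule followed the R4d pattern. Values for dpr5 were 0, 27.8 and 105 CPM in PEN2, 0, 0 and 14.5 in R4d and 33.5, 55.6 and 90.0 in CB. Those for dpr17 were 22.0, 128 and 265 in PEN2, 0, 0 and 84.9 in R4d and 85.6, 159 and 234 in CB. Those for dpr20 were 0, 26.3 and 158 in PEN2, 0, 0 and 4.33 in R4d and 61.7, 107 and 168 in CB. In all 3 genes R4d was below CB without overlap, with dpr17 near the CB range in 1 library, and PEN2 overlapped with CB.

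In dpr13 the level was 0, 11.3 and 71.5 CPM in PEN2, 0, 0 and 0.969 in R4d and 31.0, 81.9 and 154 in CB. A single count was found in all R4d libraries together, so CB was 613-fold higher than R4d with a counting interval of 109 to 24294 (95%, exact), and PEN2 was lower than CB (-1.95, adjusted p = 0.0167) with overlap. In dpr15 it was 0, 0 and 50.1 in PEN2, 0, 0 and 0.936 in R4d and 9.98, 44.9 and 124 in CB. Here too 1 count was found in R4d, and CB was 387.7-fold higher (68.6 to 15408).

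Among the DIP genes, DIP-beta had the same order as dpr8. Its values were 53.3, 130 and 244 CPM in PEN2, 0, 6.79 and 7.99 in R4d and 29.4, 49.3 and 72.2 in CB. PEN2 overlapped with CB only at its low end (PEN2 minus CB 1.31, adjusted p = 0.0154), and R4d was below both (R4d minus CB -3.06, adjusted p = 5.09e-06). DIP-eta stood at 6.26, 60.4 and 142 in PEN2, 9.75, 37.8 and 79.8 in CB and 0 in all 7 R4d libraries. Against a floor set at 3 counts for the whole R4d group, CB was at least 108-fold and PEN2 at least 166-fold higher than R4d.

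DIP-kappa was at 0 in all R4d libraries as well, at 0, 6.37 and 91.9 CPM in PEN2 and at 37.4, 54.0 and 65.7 in CB, so CB was at least 130-fold and PEN2 at least 46.0-fold higher than R4d. DIP-theta stood at 0 in 12 of 14 PEN2 libraries, with a highest value of 38.9, at 0 in all R4d libraries and at 19.5, 63.5 and 76.4 in CB. CB lay above all but 1 of the PEN2 libraries (PEN2 minus CB -4.11, adjusted p = 0.0024) and was at least 139-fold higher than R4d. The call between PEN2 and R4d was lost after thinning. DIP-zeta was at 0, 0 and 43.4 in PEN2, 0, 0 and 0.999 in R4d and 15.5, 23.0 and 56.6 in CB. R4d held 2 counts in all, and CB was 117-fold higher (31.6 to 982).

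DIP-gamma, the partner of dpr11, dpr15, dpr16 and dpr17, was at 0 to 10.3 CPM in R4d, 29.2 to 112 in CB and 0 to 93.7 in PEN2 (R4d minus CB -4.00, adjusted p = 0.00242). Its partner dpr16 was at 0 in 6 of 7 R4d libraries and at 5.16 to 43.9 CPM in CB (-4.75, adjusted p = 0.00672). A smaller fall was found for dpr19, at 69.1 to 184 CPM in R4d and 182 to 441 in CB (-1.04, adjusted p = 0.011). No comparison called dpr4, at 0 to 20.4 CPM in R4d, 0 to 15.5 in CB and 0 to 63.1 in PEN2.

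DIP-alpha and DIP-epsilon were too low to be tested. DIP-alpha stood at 0 to 3.59 CPM in R4d, 5.16 to 35.2 in CB and 0 to 54.3 in PEN2, where 8 of 14 libraries were at 0. DIP-epsilon was at 0 in all R4d libraries, and CB was at least 39.9-fold and PEN2 at least 24.0-fold higher. Of the DIP-alpha set, dpr10 alone lay in the CB range in R4d.

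DIP-iota was the exception to the low DIP levels of R4d. It had 6 to 108 counts in each of the 7 R4d libraries, 5.38, 38.4 and 99.7 CPM as lowest, median and highest, none in the 14 PEN2 libraries and 1 count in the 8 CB libraries. R4d was at least 95.4-fold higher than PEN2, and 141-fold higher than CB with an interval of 25.2 to 5594. It did not pass the filter on low counts, and in the fit without this filter it was called against CB (adjusted p = 0.000253, 24.5% of all genes called) and PEN2 (adjusted p = 6.28e-07, 19.1%). DIP-lambda was at 0 in all PEN2 and R4d libraries and at 11.7, 22.6 and 49.9 CPM in CB, which was at least 59.5-fold and 70.2-fold higher. Intervals and bounds cover counting error only.

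**Figure D3:**
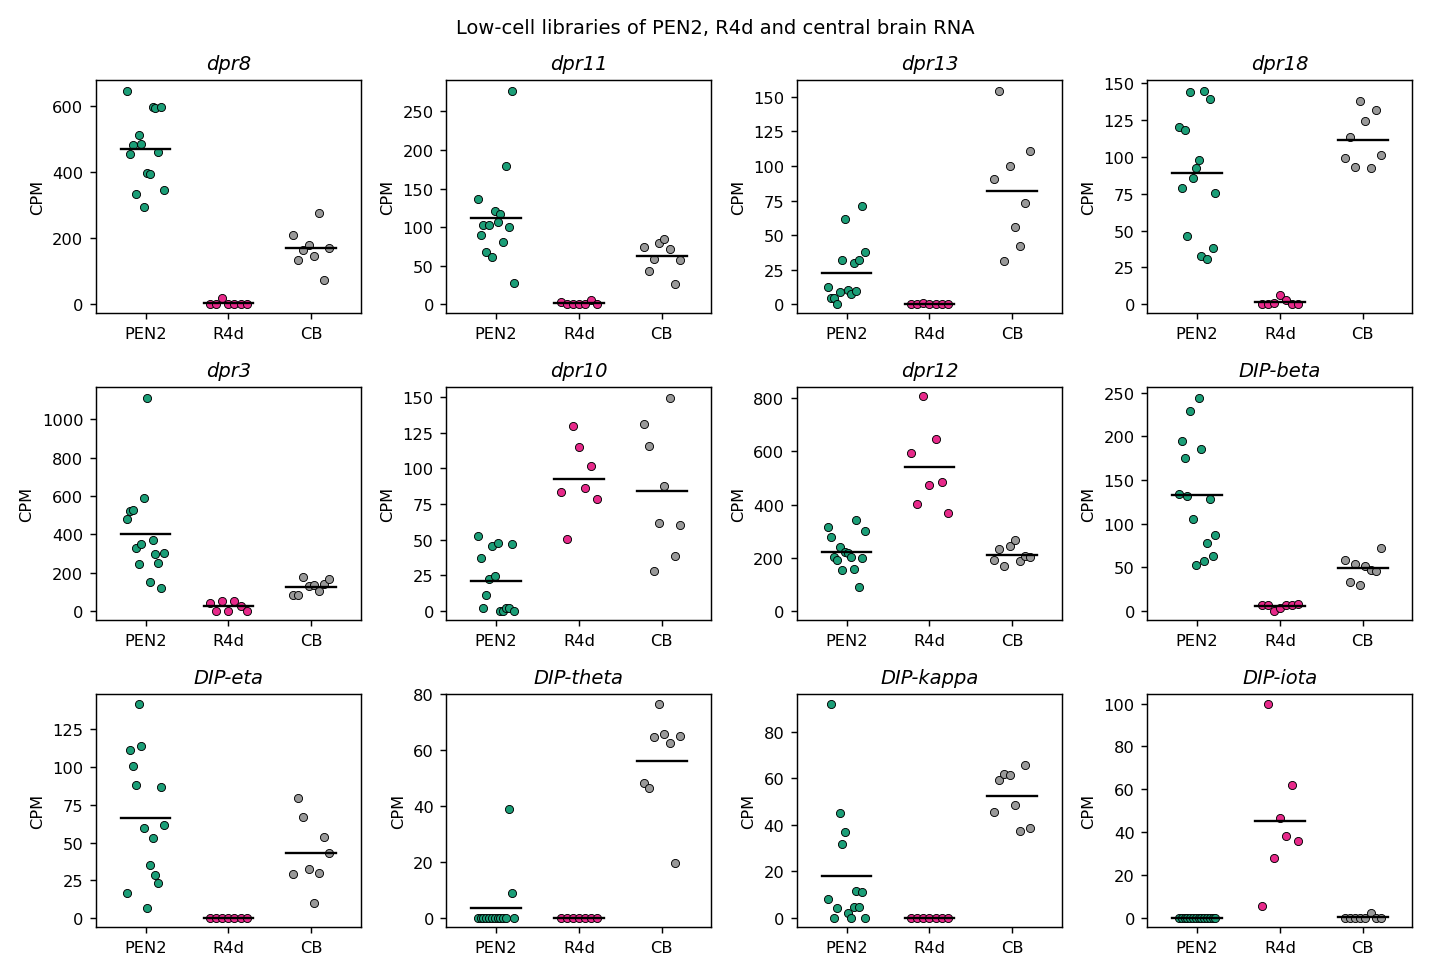
CPM (vertical axes, linear, from 0) of 12 members in the low-cell libraries, with 1 point per library (14 PEN2 in green, 7 R4d in magenta, 8 CB in grey) and a bar at the mean. R4d is at or near 0 in the upper row and in DIP-eta, DIP-theta and DIP-kappa, lies above the others in dpr12 and holds DIP-iota at 5.38 to 99.7 CPM.

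Between PEN2 and CB, 7 of 28 members were called (18.2% of all genes), 4 higher in PEN2 (dpr3, dpr8, dpr14 and DIP-beta, with 7.11% of all genes higher) and 3 lower (dpr10, dpr13 and DIP-theta, with 11.1% lower). The median of the members was -0.41 against -0.13 over all genes. The summed level of 7 glial markers was 6788 to 7391 CPM in CB, 2.298 to 378 in PEN2 and 7.17 to 59.1 in R4d, where repo, moody, alrm and Gat were at 0. Summed photoreceptor markers were 1418 to 1960 CPM in CB, mostly Rh2, against at most 4.57 in PEN2 and 12.98 in R4d. The part of these other cells in the differences to CB was not tested.

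The plates compared the 2 PEN types, with the counts of the wells of a plate summed and the plate as the sample. Only dpr3 was called of 28 members tested (edgeR, adjusted p under 0.05), against 0.256% of all 6249 genes. It stood at 23.4, 56.3, 64.2, 70.7, 85.9 and 136 CPM on the 6 PEN1 plates and at 224, 320.0, 391.4, 405 and 449 on the 5 PEN2 plates. All PEN2 plates were above all PEN1 plates, and the log2 difference was -2.29 for PEN1 minus PEN2 (adjusted p = 0.00263). The call was kept in all 16 alternatives, with adjusted p from 1.94e-08 to 0.0441 and differences from -2.10 to -2.58. On the PEN1 plates a single well gave 28.2% to 59.2% of the dpr3 counts, against 9.69% to 22.7% on the PEN2 plates.

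Wells differed in the reporter between the 2 types. At least 10 reporter counts were found in 63.4% of 380 PEN1 wells and 29.3% of 362 PEN2 wells. In those wells alone dpr3 stood at 14.9 to 140 CPM on PEN1 plates and 97.6 to 589 on PEN2 plates, with 1 PEN2 plate inside the PEN1 range, and it was again the member called (-2.54, adjusted p = 0.0441, 0.280% of all genes). The glial marker sum ranged from 47.9 to 1315 CPM on PEN1 plates and from 51.9 to 1467 on PEN2 plates. Summed markers of blood and fat cells stood at 1.12 to 11.5 CPM on PEN1 plates and 4.28 to 570 on PEN2 plates, and their part in the dpr3 difference was not tested.

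None of the other 27 members passed, 5 of them at an unadjusted p under 0.05, and the median over the 28 members was -0.32 against 0.00 over all genes. DIP-gamma stood at 17.7, 36.9, 43.4, 82.0, 161 and 162 CPM on PEN1 plates and at 3.80, 8.98, 13.5, 35.7 and 36.5 on PEN2 plates (2.10, adjusted p = 0.444). The groups overlapped by 1 PEN1 plate. Its partner dpr16 went the other way, at 0 to 7.74 CPM in PEN1 and 7.93 to 27.3 in PEN2 (-3.18, adjusted p = 0.773), but in wells with the reporter the groups overlapped (0 to 9.92 and 0.656 to 18.1 CPM). On 4 of the 5 PEN2 plates a single well gave 51.3% to 85.5% of its counts. The difference was -1.33 for dpr1 (adjusted p = 0.734) and -1.72 for dpr10 (adjusted p = 0.893). On the PEN1 plates 66.7% to 97.1% of the dpr10 counts came from a single well, and in wells with the reporter dpr10 stood at 0.544 to 48.4 CPM in PEN1 and 0 to 69.9 in PEN2. DIP-theta was at 1.26 to 72.8 CPM in PEN1 and 3.17 to 19.2 in PEN2 (2.17, adjusted p = 0.904). Members present on every plate of both types included dpr8 at 408 to 599 in PEN1 and 296 to 552 in PEN2, dpr6 at 284 to 482 and 347 to 605, and dpr14 at 231 to 347 and 271 to 597.

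**Figure D4:**
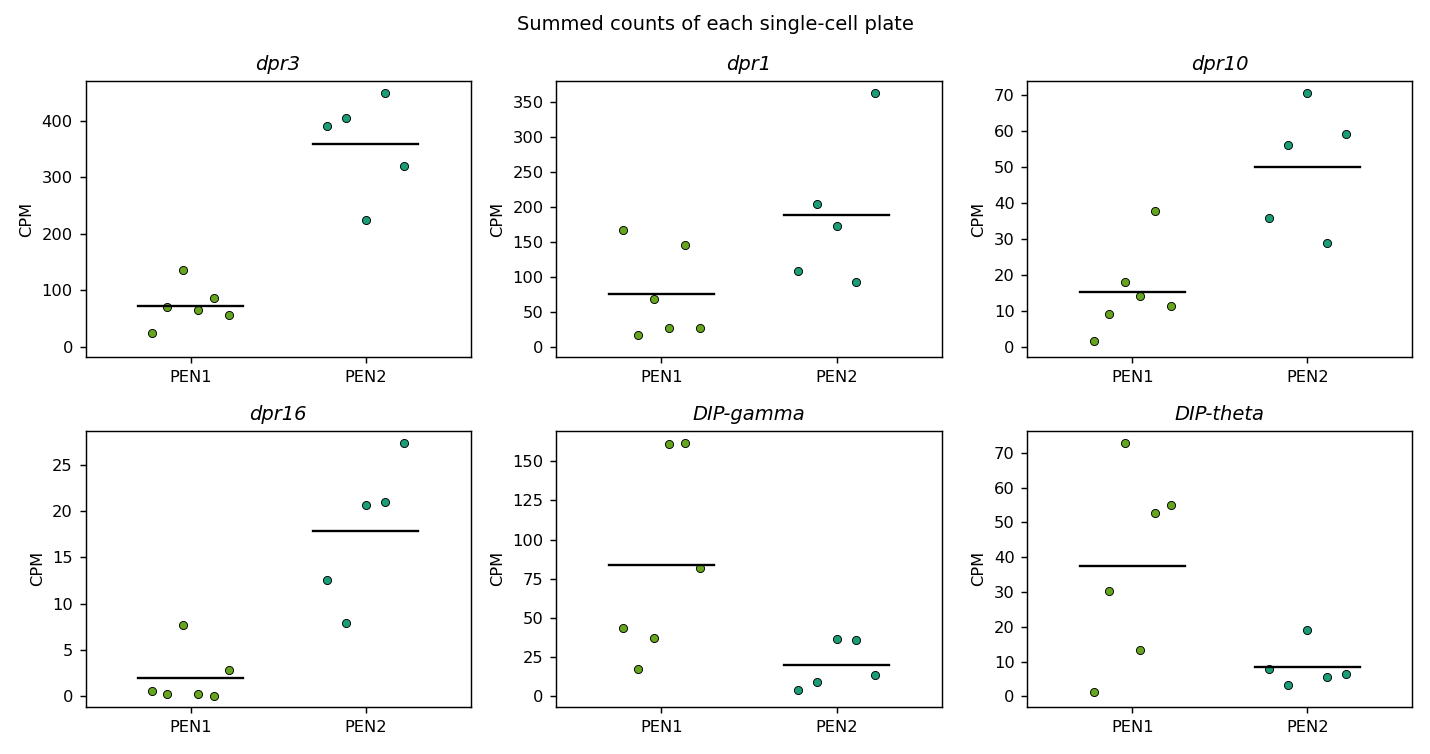
CPM (vertical axes, linear, from 0) of the 6 members with an unadjusted p under 0.05 between PEN1 and PEN2, with 1 point per plate and a bar at the mean. The groups are apart for dpr3, at 23.4 to 136 CPM on the 6 PEN1 plates and 224 to 449 on the 5 PEN2 plates, and this is the only adjusted call.

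PEN2 was measured in all 3 protocols, on scales that are not compared with each other. Within the bulk protocol dpr3 was called higher in PEN2 than in D7 and EPG, calls that 12 of 19 settings each lost. It was higher than in R4d and CB within the low-cell protocol, and higher than in PEN1 on the plates. Against the brain RNA its direction was not the same in the 2 protocols. In bulk it stood at 5.03 and 4.69 FPKM against 33.2 and 33.8 in WB, which was not called, and in the low-cell libraries above CB. WB includes the optic lobes and CB does not, and the 2 protocols also differ in input and unit. The cause of the different direction was not tested and cannot be told apart here.

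Of the related genes cDIP, klg, Lac, Ama and wrapper, 4 could be tested in bulk. The F test called 2 of them, klg (adjusted p = 0.0212) and Lac (adjusted p = 0.0425). The klg gene, known from photoreceptor development and from glia and neurons in memory, stood at 30.6 to 60.0 FPKM in EPG, 43.7 and 52.5 in PEN2, 11.4 to 44.3 in D7 and 9.24 and 10.3 in PEG. In the low-cell libraries it was at 1180 to 3253 CPM in PEN2, 460 to 584 in CB and 0 to 65.5 in R4d, without overlap (PEN2 minus CB 1.67, adjusted p = 0.00765, R4d minus CB -4.79, adjusted p = 1.11e-07). Lac stood at 6.03 and 36.3 FPKM in PEN2 and at 0 to 0.24 in D7. The glial gene wrapper was lower in all 4 sorted bulk types than in WB, and was at 0 in all PEN2 and R4d low-cell libraries against 54.2 to 124 CPM in CB. It passed the filters only because of WB and CB, so its lower direction was set by them. On the plates none of the 2 tested was called.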

How the data were processed

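The bulk table holds FPKM deposited by the authors, a unit inferred from the values, as no header names it. The low-cell and plate tables hold counts that the authors deposited as whole numbers. The authors' deposited comparison tables give log2 fold changes and p-values (FDR), per the file headers, as brain over sorted type, and are given here as sorted type over brain. The submitters' processing notes name STARsolo and edgeR. Versions, build and strand handling are not given in the sources used here, so overlapping genes could not be told apart. The 32 members, the partner pairs and the 5 related genes were chosen with earlier results of these data known.

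Bulk FPKM were fitted with limma 3.58.1 (trend) on log2(TMM-scaled FPKM + 1), keeping genes at 1 FPKM or more in 2 or more libraries, all libraries together with a term per type. Drivers were compared in a fit with a term per driver. Counts were fitted with edgeR 4.0.16 (filterByExpr, TMM, glmQLFit, glmQLFTest). For each plate the wells holding 500 genes or more were summed, leaving out positions E12 to H12, since the wells of the control RNA are not labelled. Benjamini-Hochberg adjustment ran over all genes of a comparison. Values of every library, as lowest, median and highest in groups over 5, are given for members called in the bulk F test or in 2 of the 3 low-cell comparisons. Bounds use a floor of 3 counts over the group, and ratios an exact 95% interval. Alternatives were no scaling, upper-quartile scaling, a pseudocount of 0.1, no filter, a replicate block, DESeq2 1.42.0, thinning, wells with the reporter, a quadrant term, and fits that omit a bulk library or a plate in turn. The fits were tested on simulated data. The 14 bulk and 11 plate libraries follow the sample characteristics where a title or header differs in the driver number. The study's design text speaks of 9 R4d replicates, and 7 were analysed here. Fits ran in R 4.3.3. Tables and figures were made with pandas 2.3.3, matplotlib 3.10.9, numpy 2.4.6 and scipy 1.17.1 under Python 3.11.15.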

Additional observations from a re-analysis of the deposited data

Results flagged for a closer look

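A library lying far from the rest of its group was looked for in 67 groups of 4 to 10 libraries, and 16 were found. For normally distributed values, chance alone gives this in about 1 of 20 groups. Many values here were 0, and a single library above 0 among others at 0 is always flagged. The number found can therefore not be set against that rate. The D7 and EPG bulk groups of 4 also combine 2 drivers. The bulk cases in D7 were dpr2 at 0.04 FPKM (the others at 0), dpr6 at 2.99 (the others 0 to 0.32), dpr10 at 0.41 (the others at 0) and dpr12 at 104 (the others 77.1 to 81.5). The last 3 were the same library, SS30295 replicate 2. In EPG, dpr3 stood at 0.78 FPKM in SS00096 replicate 2 (the others up to 0.01) and DIP-kappa at 0.55 in SS00131 replicate 2 (the others up to 0.06).

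In R4d the flagged values were the highest of 7 libraries. They were 24.3 CPM for dpr1 and 14.5 for dpr5, with all others at 0, 32.9 for dpr6 (others up to 9.86), 18.4 for dpr8 (others up to 0.999), 0.969 for dpr13 and 0.936 for dpr15, each a single count with all others at 0, 84.9 for dpr17 (others up to 7.76) and 4.33 for dpr20 (others up to 0.936). In CB, dpr15 reached 124 CPM in 1 library (others 9.98 to 60.2) and DIP-delta 63.4 (others 23.2 to 41.2).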

How the results depend on the processing

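The number of members called stayed within 1.5 times of the reported count in all 17 comparisons under upper-quartile scaling, DESeq2, thinning, wells with the reporter and the quadrant term, where these were run. No called difference reversed its direction. No scaling gave 2 calls for EPG against PEN2, 15 for PEG against WB and 8 for PEN2 against WB. A pseudocount of 0.1 gave 1 for EPG against PEG and 2 for PEN2 against WB. No filter gave 1 between the D7 drivers (DIP-alpha) and 2 for PEN1 against PEN2 (dpr3 and DIP-lambda). Leaving out single libraries gave 0 to 5 for EPG against PEG, 1 to 6 for EPG against PEN2, 2 to 5 for PEG against PEN2, 1 to 14 for D7 against WB, 0 to 12 for EPG, 0 to 10 for PEG and 0 to 5 for PEN2 against WB. The F test over the bulk types gave 8 to 14. Leaving out a library also leaves fewer samples to estimate the spread, and where 1 library was left in a group its spread was taken from the other groups. The cause of the other changes was not tested. Over single members, 831 of 1025 calls were kept when a library was left out, 119 of 128 without scaling and 55 of 73 with the pseudocount of 0.1.

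The replicate block gave 2 calls for EPG against PEN2, where dpr3 and DIP-kappa were lost, and kept 64 of 73 calls. The replicate numbers did not pair the libraries, as the correlation of deviations between same-numbered libraries of the 7 groups was -0.0384 to 0.038.

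Bulk depth is unknown, the PEG and PEN2 bulk groups have 2 libraries each, and members at 0 in 35 to 40 cells were not detectable at this depth, which does not show that they are absent.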

Other observations

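The 2 PEN2 bulk libraries differed from each other in several members. Replicate 1 held dpr21 at 81.4 FPKM, dpr18 at 52.8, DIP-delta at 32.6 and DIP-lambda at 30.0, while replicate 2 held them at 5.95, 2.20, 0.07 and 0. DIP-lambda was above 10 FPKM in no other sorted library. On the plates it ranged from 0 to 79.2 CPM in PEN2 and from 0 to 1.76 in PEN1, and it was at 0 in all 14 low-cell PEN2 libraries. The fit of the plates without a filter on low counts called it (adjusted p = 0.0126), while it was below the filter in the reported fit. On PEN2 plates 3 and 4 a single well gave 97.6% and 97.2% of its counts. In wells with the reporter it stood at 0, 70.4, 1.44, 0 and 49.2 CPM on PEN2 plates 1 to 5.

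In the authors' deposited table for R4d against CB, 28 members had an FDR under 0.05, with dpr12 and DIP-iota higher and 26 lower in R4d (19.1% of all 17713 rows passed). The authors' deposited table for low-cell PEN2 against CB had dpr3, dpr8, dpr14 and DIP-beta higher and dpr13, DIP-theta and DIP-lambda lower (12.9% of rows). The authors' deposited tables against WB had 13 members lower in D7 (4.64% of rows) and 7 lower in EPG (3.16%), and no member past this FDR in PEG (0% of rows) or PEN2 (0.079%).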
